A study of Mus musculus with 16 samples.

Results

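The genes described here are 10 chromatin modifiers known for their part in lymphomas of the germinal center (GC): *Ezh2* (ENSMUSG00000029687), *Kmt2d* (ENSMUSG00000048154), *Crebbp* (ENSMUSG00000022521), *Ep300* (ENSMUSG00000055024), *Tet2* (ENSMUSG00000040943), *Dnmt3a* (ENSMUSG00000020661), *Arid1a* (ENSMUSG00000007880), *Smarca4* (ENSMUSG00000032187), *Hdac3* (ENSMUSG00000024454) and *Kdm1a* (ENSMUSG00000036940). They were taken by symbol from the count matrix, and all 10 were found among its 56691 genes. The rule uses no measured value. Single light zone (LZ) GC B cells were sorted from lymph nodes of 8 mice (hosts), and the whole transcriptome of 637 cells was sequenced by SMART-seq2, a plate method that reads full-length cDNA. Each host had received B1-8hi BTKC481S and B1-8hi BTKWT B cells together. The knock-in heavy chain of B1-8hi cells makes a receptor that binds the hapten NP strongly, and BTK with the C481S change resists the kinase inhibitor acalabrutinib. Hosts were 6 to 8 weeks old when primed with ovalbumin, and before the sort at 14 hours 3 oral doses were given, of acalabrutinib to 5 hosts (named A7, A8, A10, A11, A12) and of vehicle to 3 (named V5, V7, V9). Cell names carry the host but not the genotype, so both genotypes of a host were pooled, and the host was the replicate throughout. The 2 experiments that gave these cells are not told apart in the cell names.

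Chromatin modifiers set how tightly DNA is packed and which genes can be read. EZH2, the enzyme of Polycomb repressive complex 2 (PRC2), writes a repressive methyl mark on histone H3, whereas KMT2D writes an activating mark at enhancers, and the acetyltransferases CREBBP and EP300 acetylate histones there. HDAC3 removes acetyl groups as part of the NCOR complexes, and KDM1A (LSD1) removes methyl groups together with the CoREST corepressor. TET2 oxidizes methylated cytosine, DNMT3A places new methyl groups on DNA, and ARID1A and SMARCA4 are the DNA-binding and ATPase subunits of SWI/SNF complexes that move nucleosomes. GC B cells depend on EZH2 and on the repressor BCL6, which recruits HDAC3, and genes of this group are often mutated in follicular and diffuse large B cell lymphoma.

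The promoter windows of *Ezh2* and *Smarca4*, which rose in cycling cells, are shown beside one of *Arid1a*, which did not, because they differ in a motif of the E2F factors, which drive genes of DNA replication. Windows run from 250 bases before to 50 bases after the start site in RefSeq (GRCm38.p6), and 9 of the 10 genes matched an entry. The motif was searched on both strands as TTTCGCGC, TTTGGCGC, TTTCCCGC or TTTGCCGC, and capitals mark a match. *Ezh2* held 1 match, 3 bases after its start site (minus strand, chr6:47594981-47595280). *Smarca4* held none (plus strand, chr9:21615919-21616218). The second window of *Arid1a* held 1 match, 55 bases before its start (minus strand, chr4:133753936-133754235).
Ezh2 promoter window: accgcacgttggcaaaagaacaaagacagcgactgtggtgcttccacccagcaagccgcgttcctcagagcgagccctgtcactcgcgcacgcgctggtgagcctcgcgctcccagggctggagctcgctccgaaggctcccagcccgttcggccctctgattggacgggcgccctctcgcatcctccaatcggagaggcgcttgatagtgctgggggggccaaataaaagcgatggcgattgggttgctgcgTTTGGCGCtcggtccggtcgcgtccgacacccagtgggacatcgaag
Smarca4 promoter window: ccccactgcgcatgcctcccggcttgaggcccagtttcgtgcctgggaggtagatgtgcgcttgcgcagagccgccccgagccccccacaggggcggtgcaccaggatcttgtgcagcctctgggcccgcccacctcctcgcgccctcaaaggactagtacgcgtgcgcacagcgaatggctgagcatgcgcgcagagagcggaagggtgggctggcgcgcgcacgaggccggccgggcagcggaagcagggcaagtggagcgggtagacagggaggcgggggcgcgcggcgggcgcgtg
Arid1a second promoter window: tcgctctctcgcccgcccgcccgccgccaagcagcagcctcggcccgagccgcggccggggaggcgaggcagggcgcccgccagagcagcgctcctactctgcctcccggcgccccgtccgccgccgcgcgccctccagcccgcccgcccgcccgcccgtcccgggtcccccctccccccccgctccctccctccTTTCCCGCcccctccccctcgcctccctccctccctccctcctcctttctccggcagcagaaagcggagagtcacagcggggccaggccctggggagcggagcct
No match was found in the windows of *Kmt2d*, *Crebbp*, *Ep300*, *Tet2*, *Dnmt3a* or *Kdm1a*. Of 32851 windows in the RefSeq set 744 held a match (2.26%), and a match says only that these letters are there.

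Values are CPM, the counts of a gene in the summed cells of a host scaled to a common total of counts. The hosts gave between 26778559 and 114987280 counts from 45 to 130 cells. All 8 GC B cell markers were present, each with a count in 62.0% to 99.5% of cells. Markers of other cells varied. Of 8 T cell markers, *Cd3e*, which defines these cells, had a count in 0.157% of cells, whereas *Lck* was seen in 51.6%, *Cd28* in 12.1% and *Cd5* in 10.4%, and the summed level of the list was 166 to 403 CPM in the hosts, of which *Lck* gave 269.6 CPM on average. Of 8 macrophage and monocyte markers *Itgam* and *Cd14* had 0 counts, whereas *Adgre1* was seen in 38.1% of cells and *Cd68* in 9.11%, and the summed level of that list was 22.1 to 34.5 CPM. Of 5 plasma cell markers *Jchain*, which GC B cells also express, was at 880.2 CPM with a count in 91.2% of cells. *Xbp1* was at 352 CPM with a count in 56.0% of cells, against 9.89% for *Irf4*, 6.28% for *Prdm1* and 2.35% for *Sdc1*. The summed level of the plasma cell list was 893 to 1522 CPM. The part of these markers in the results below was not tested.

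All 10 genes were detected, and they fell into an abundant and a scarce group. CPM does not take gene length into account, so levels of different genes were compared per kilobase of exon. By that scale *Smarca4* stood highest at 74.1 ± 9.90 CPM per exon kilobase (mean ± SD, n = 8 hosts), and its lowest host (61.9) was above the highest host of the next gene, *Hdac3* (47.4). *Hdac3* (30.9 ± 9.13), *Kmt2d* (28.1 ± 3.62), *Ezh2* (28.1 ± 4.84), *Arid1a* (24.6 ± 3.29), *Crebbp* (24.5 ± 2.34) and *Ep300* (19.2 ± 5.40) followed, and each neighbouring pair among them overlapped between hosts. The level then dropped to *Kdm1a* (5.28 ± 1.82 CPM per exon kilobase), whose highest host (7.01) was below the lowest host of *Ep300* (13.8). *Tet2* (2.701 ± 0.91) and *Dnmt3a* (1.75 ± 1.05) were lowest. Their ranges overlapped those of the neighbouring gene, although *Kdm1a* was above *Tet2* in 8 of 8 hosts and *Tet2* above *Dnmt3a* in 7 of 8. Because the counts include introns, this order, with *Smarca4* first, holds for exon length only. The whole gene spans 88.1 kilobases for *Smarca4*, 39.5 for *Kmt2d* and 19.2 for *Hdac3*. *Kmt2d* had the higher mean level (560 against 480 CPM) over the shorter gene, so *Smarca4* was not first per whole gene length. The full order per whole gene length was not computed.

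**Figure D1:**
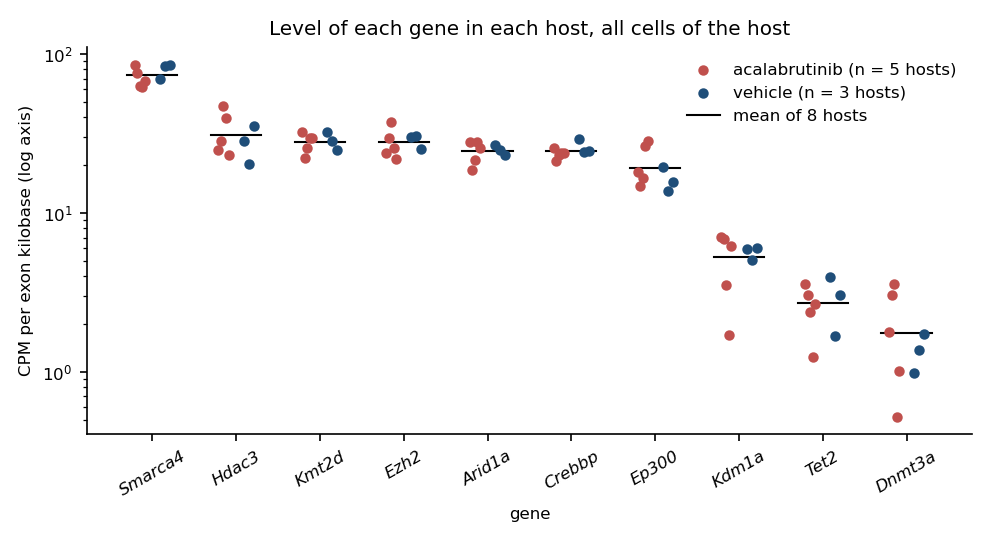
CPM per exon kilobase (log axis) of each gene in each of the 8 hosts, with acalabrutinib hosts in red, vehicle hosts in blue and a black line at the mean. *Smarca4* stands above the others at 74.1, and *Kdm1a*, *Tet2* and *Dnmt3a* lie below all hosts of the remaining genes, between means of 5.28 and 1.75.

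The share of cells with at least 1 count followed another order. *Kmt2d*, the enhancer methyltransferase, had a count in 610 of 637 cells (95.8%, exact 95% interval 93.9 to 97.2). *Crebbp* was seen in 79.9% of cells, *Smarca4* in 78.8%, *Arid1a* in 71.0%, *Ep300* in 64.1% and *Ezh2* in 63.3%. *Tet2* (39.7%), *Hdac3* (33.3%), *Dnmt3a* (21.5%) and *Kdm1a* (17.0%) were seen in a minority. The interval treats the 637 cells as independent and leaves out the spread between hosts, in which the share of *Kmt2d* ran from 91.1% to 100%. Reads without molecular identifiers are not independent molecules. The counts behind a detection differed widely. Cells with *Hdac3* held a median of 288 counts of it, whereas cells with *Tet2* held a median of 2, and 166 of the 253 *Tet2* cells had 1 to 9 counts. At a minimum of 10 counts *Tet2* was left in 13.7% of cells and *Dnmt3a* in 10.8%. A few cells carried much of the scarce genes: the 10 highest cells held 40.5% of all *Dnmt3a* counts and 34.4% of those of *Kdm1a*, against 6.06% for *Kmt2d*. In GENCODE M21, 8 of the 10 genes, all but *Kmt2d* and *Hdac3*, overlap another annotated gene. *Ezh2* overlaps *Gm26625* and *Gm44282*, *Smarca4* overlaps *Gm27373*, *Dnmt3a* overlaps *Dnmt3aos*, and *Kdm1a* overlaps *Luzp1* and *Gm12987*. Counting took introns in and no source used here states a strand setting, so reads of overlapping genes could not be told apart.

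A cell held counts of 5.64 ± 1.58 of the 10 genes (mean ± SD over 637 cells), from 1 to 10, and no cell lacked all of them. That number moved with depth, from 4.86 in the third of cells with the fewest counts to 6.38 in the third with the most. It was 5.09 in G1, 5.91 in S and 6.17 in G2/M cells, and 4.99, 5.70 and 5.89 with cells thinned to one depth. The median number of all genes with a count also differed, at 3490 in G1, 4233 in S and 4385 in G2/M cells without thinning.

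The first comparison asked whether the genes differ between cycling and G1 LZ cells of the same host. Each cell was given a phase from the standard S and G2/M genes of Seurat, none of which is among the 10, and S and G2/M cells (383) were called cycling against 254 G1 cells. Of 7 check genes that are not among the phase genes, the cyclin *Ccna2* was at 8.74 CPM in G1, 256 in S and 499 in G2/M. *Ccnb1*, *Plk1* and *Bub1b* also rose at each step. *Mcm3* (241, 758 and 306 CPM) and *Mcm7* (123, 612 and 343 CPM) were highest in S, and *Prc1* had 0 counts in every cell. G1 cells were shallower, with a median of 687226 counts against 869386. Of the 10 genes, *Ezh2* and *Smarca4* rose in cycling cells by the quasi-likelihood test of edgeR with the host as a block (adjusted p under 0.05), and none fell. In the background of 12590 tested genes, phase genes left out, 1.94% were called higher and 1.11% lower. The median log2 difference over those genes was 0.13, and over the 10 genes it was 0.0018.

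*Ezh2* showed the widest separation. Its level in cycling cells was 206 CPM in the lowest host, 242 in the median and 312 in the highest, and in G1 cells it was 46.9, 84.1 and 141 CPM. The 2 sets of hosts did not overlap, and the cycling value was higher in 8 of 8 hosts. Every cycling value lay above every G1 value for 1.88% of tested genes. The fitted log2 difference was 1.47 ± 0.17 (SE), a 2.77-fold rise, with an adjusted p of 0.0011 (edgeR, 8 hosts), and with cells thinned to one depth it was 1.36 (adjusted p = 0.0025). The share of cells with a count was 72.5% ± 6.58 in cycling and 49.0% ± 9.89 in G1 cells (SD, n = 8). S cells (232 ± 59.4 CPM) and G2/M cells (244 ± 42.99 CPM) stood side by side, higher in G2/M in 4 of 8 hosts, and the difference between them was not called (log2 0.11 ± 0.19, edgeR adjusted p = 0.98).

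*Smarca4*, the SWI/SNF ATPase, rose less and close to the threshold. Its level was 392, 531 and 618 CPM in the lowest, median and highest host in cycling cells and 285, 394 and 437 CPM in G1 cells. Cycling cells were higher in 7 of 8 hosts, and the exception was A12 with 392 CPM in cycling and 437 CPM in G1 cells. The log2 difference was 0.47 ± 0.11, a 1.39-fold rise (edgeR adjusted p = 0.049). This call was held when A12 was left out (adjusted p = 0.0088) and lost when any one of the other 7 hosts was left out (highest 0.13). The share of cells with *Smarca4* was 85.4% ± 6.27 in cycling and 68.5% ± 8.07 in G1 cells, higher in 8 of 8 hosts, as it was for 15.01% of tested genes.

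The rise of *Smarca4* lay mostly in G2/M. Its level was 381 ± 56.7 CPM in G1, 441 ± 103 in S and 662 ± 93.6 in G2/M cells, and G2/M was above S in 7 of 8 hosts. For that step the log2 difference was 0.63 ± 0.13 with a p of 0.00075 and an adjusted p of 0.083 (edgeR), so it was not called. It was called with cells thinned to one depth (adjusted p = 0.029), with cells weighted equally (0.018) and by DESeq2 (3.4e-05). None of the 10 genes was called between G2/M and S cells, where 0.229% of 10896 genes were higher and 0.0918% lower. At an unadjusted p under 0.05 the number of the 10 was 1, beside 7.32% of all tested genes, and DESeq2 also called 1, beside 7.87%.

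*Hdac3* differed in how many cells held it. The share of cells with a count was 41.3% ± 7.67 in cycling and 19.9% ± 6.45 in G1 cells. The lowest cycling host (30.3%) was just above the highest G1 host (30%), as every cycling value was above every G1 value for 4.59% of tested genes. With cells thinned to 459128 counts the shares were 40.9% ± 6.49 and 21.0% ± 6.24. Its summed level was 147 ± 47.9 CPM in cycling and 90.3 ± 30.5 CPM in G1 cells, higher in 8 of 8 hosts. That difference was not called by edgeR (log2 0.72 ± 0.23, adjusted p = 0.15) and was called by DESeq2 (adjusted p = 0.032), which called 10.1% of tested genes higher and 5.56% lower.

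*Kmt2d* and *Ep300*, which mark enhancers, pointed the other way without passing the test. *Kmt2d* was at 506 ± 82.3 CPM in cycling and 647 ± 120.3 CPM in G1 cells, lower in 6 of 8 hosts (log2 -0.37 ± 0.11, edgeR adjusted p = 0.12). *Ep300* was at 246 ± 70.5 CPM in cycling and 321 ± 87.4 CPM in G1 cells, lower in 7 of 8 hosts (log2 -0.41 ± 0.13, edgeR adjusted p = 0.13). DESeq2 called both lower (0.0025 and 0.0082), and *Kmt2d* also passed with cells weighted equally (0.027). The ranges of cycling and G1 hosts overlapped for both genes.

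Of the DNA methylation enzymes, *Tet2* was at 28.6 ± 17.99 CPM in cycling and 79.2 ± 55.2 CPM in G1 cells, lower in 7 of 8 hosts, with a wide error (log2 -1.39 ± 0.67, edgeR adjusted p = 0.40). The highest G1 host was A10 at 196 CPM. DESeq2 called *Tet2* lower (0.048). *Dnmt3a* (24.8 ± 15.7 against 39.8 ± 34.3 CPM, log2 -0.85 ± 1.05) and *Kdm1a* (28.4 ± 17.3 against 25.9 ± 25.2 CPM, log2 0.27 ± 1.70) were not called, and their errors were wider than their differences. *Arid1a* (log2 0.04 ± 0.20) and *Crebbp* (log2 -0.04 ± 0.17) had differences within their errors. *Crebbp* was nevertheless seen in more cycling cells, 84.4% ± 8.60 against 72.7% ± 6.29, in 7 of 8 hosts, and in 8 of 8 hosts with cells thinned. Detection was wider in cycling cells in general, with a median of 4291 genes per cell against 3490 in G1 cells. Without thinning, the share was higher in 8 of 8 hosts for 15.01% of tested genes.

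**Figure D2:**
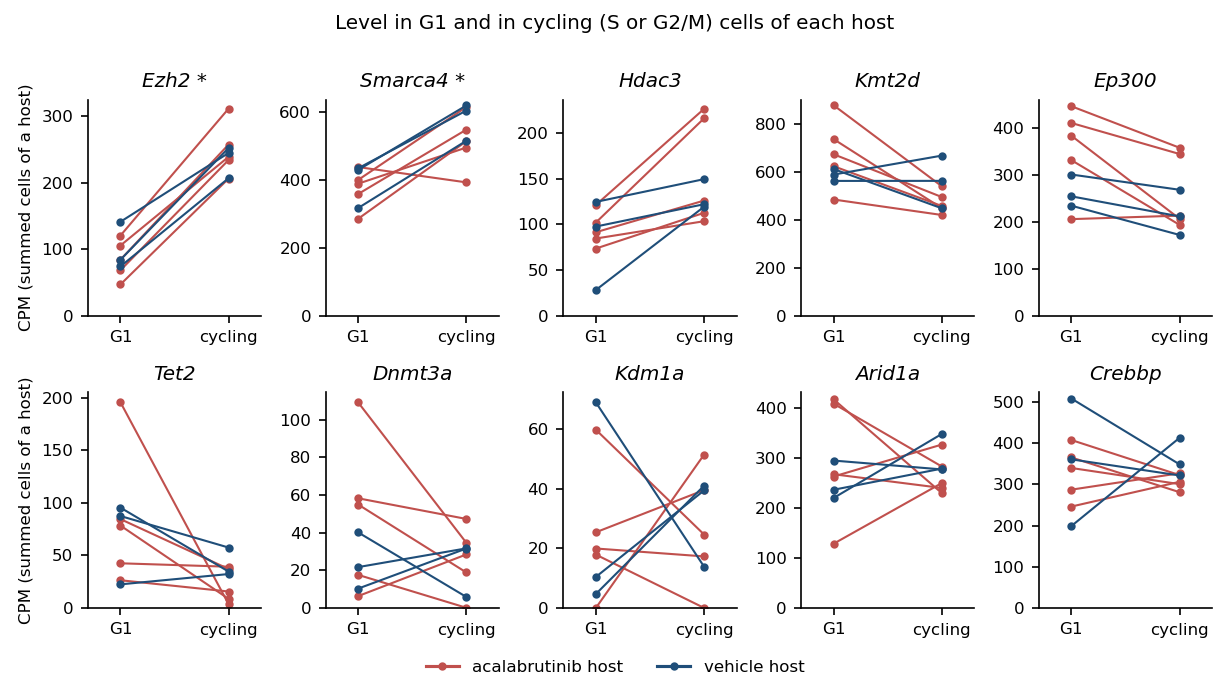
CPM of each gene in the summed G1 and the summed cycling (S or G2/M) cells of each host, with a line joining the values of 1 host, acalabrutinib hosts in red and vehicle hosts in blue; an asterisk marks an adjusted p under 0.05. All 8 lines rise for *Ezh2* and *Hdac3* and 7 of 8 for *Smarca4*, while 7 of 8 descend for *Ep300* and *Tet2*.

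**Figure D3:**
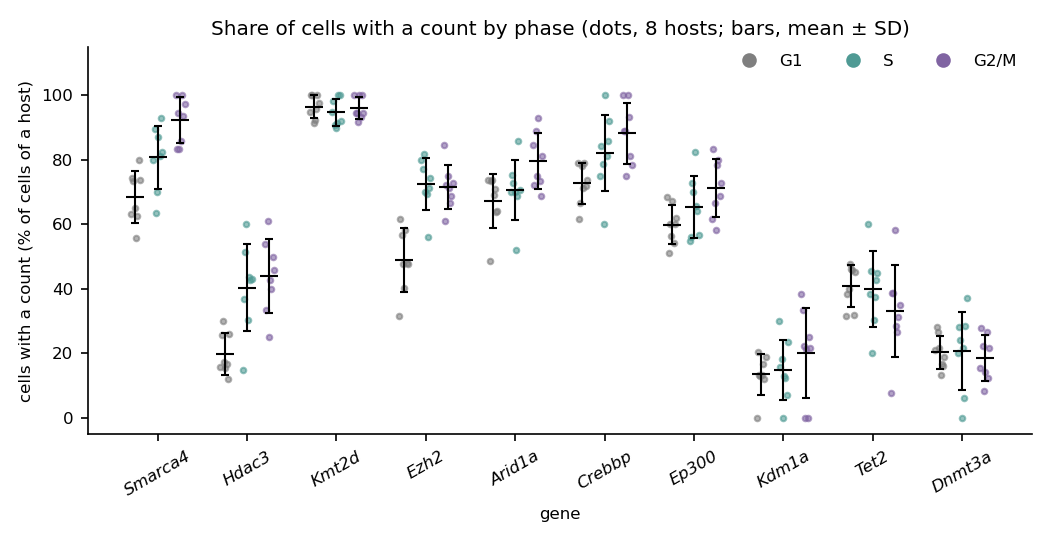
Share of cells of a host with at least 1 count of each gene, in percent, for G1, S and G2/M cells, with a dot for each of the 8 hosts and the mean ± SD. *Ezh2* is seen in 49.0% of G1 and 72.6% of S cells, *Hdac3* in 19.9% and 40.4%, and *Kmt2d* in most cells of each phase.

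Other genes of the same complexes gave the 10 a frame. Of 69 further chromatin genes 67 were tested, and 7 were called higher and 1 lower in cycling cells, with a median log2 difference of 0.31 beside 0.13 over all tested genes. Among 9 tested partners of EZH2 in PRC2, 2 rose and none fell. These were the histone-binding subunits *Rbbp7* (489.5 ± 92.1 against 227 ± 69.6 CPM, adjusted p = 0.0015) and *Rbbp4* (348 ± 32.6 against 188 ± 63.8 CPM, adjusted p = 0.024), which other complexes share. The core subunits *Eed* and *Suz12* were higher in 7 of 8 hosts, with log2 differences of 0.66 ± 0.23 and 0.61 ± 0.21 that were not called (adjusted p of 0.19 in edgeR for both). *Ezh1*, the other PRC2 methyltransferase, gave 0.35 ± 1.05.

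*Dnmt1*, which copies DNA methylation after replication, rose from 275 ± 105 CPM in G1 to 672 ± 76.7 CPM in cycling cells (log2 1.35 ± 0.18, edgeR adjusted p = 0.0027), whereas *Tet3* was not called (log2 -0.44 ± 0.17). Of the 11 tested KMT2 genes only *Paxip1*, which also acts in DNA repair, passed the test, at 147 ± 48.2 against 44.5 ± 17.2 CPM. *Kmt2c* (log2 -0.04 ± 0.12) and *Kdm6a* (log2 -0.02 ± 0.19) were not called. Of 15 SWI/SNF subunits *Actl6a* rose (150.1 ± 26.8 against 78.7 ± 33.7 CPM), and *Smarca2*, the ATPase that can take the place of SMARCA4, fell in 8 of 8 hosts, from 218 ± 72.2 to 109 ± 43.7 CPM (log2 -1.05 ± 0.23, edgeR adjusted p = 0.037). CPM was lower in 8 of 8 hosts for 2.07% of tested genes. *Arid1b* (log2 -0.30 ± 0.08, higher in 0 of 8 hosts) and *Arid2* (log2 0.68 ± 0.18, higher in 6 of 8) were not called. None of 15 HDAC and LSD1 corepressor genes and none of 7 further acetyltransferases passed, among them *Hdac1* (log2 0.39 ± 0.15, higher in 8 of 8 hosts), *Hdac2* (0.94 ± 1.13), *Ncor1* (-0.37 ± 0.23) and *Rcor1* (0.14 ± 0.31). Of 6 other chromatin genes of lymphoma *Nsd2*, an H3 methyltransferase, rose from 105 ± 67.5 to 340.1 ± 94.4 CPM. The linker histone *H1f4* rose from 2.74 ± 2.37 to 45.9 ± 22.8 CPM, with 1 host at 0 in G1. Calls of *Rbbp7*, *Paxip1*, *Dnmt1* and *Nsd2* were kept with each host left out, as was that of *Ezh2*, while *Rbbp4* kept its call in 4 of 8 such fits, *H1f4* in 2, and *Actl6a* and *Smarca2* in 1 each.

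**Figure D4:**
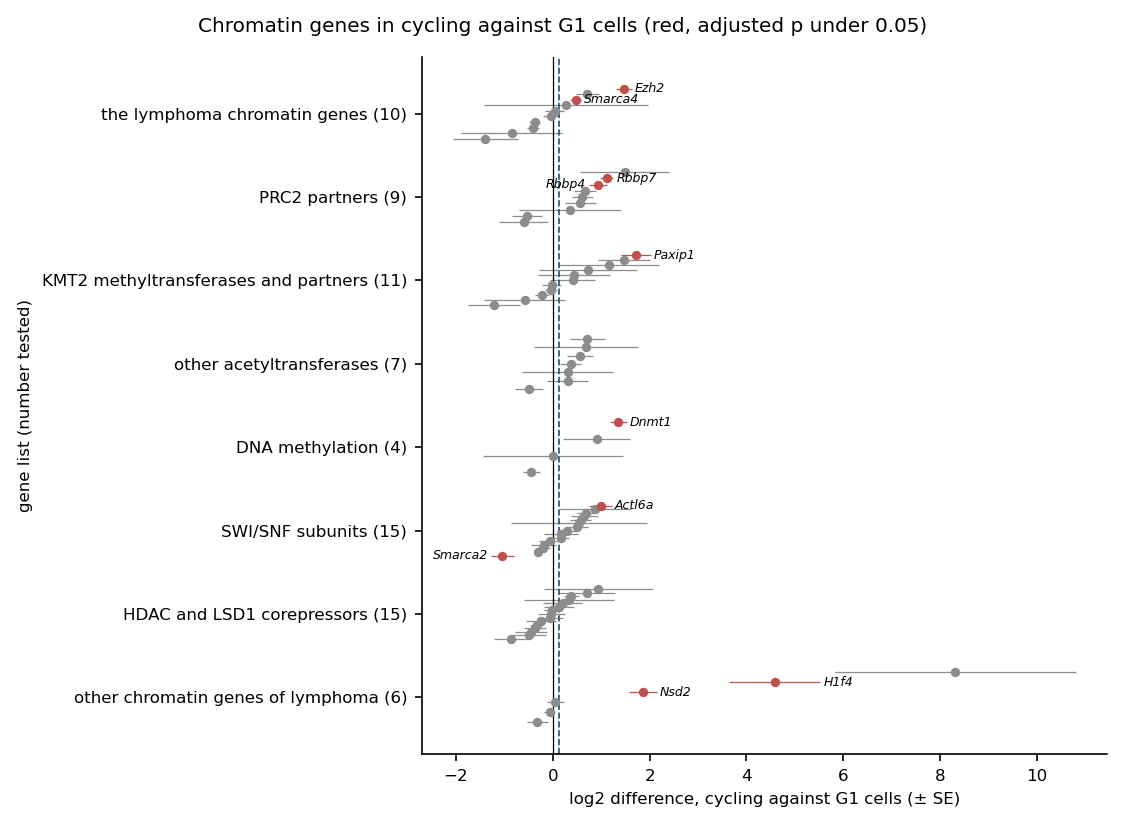
Log2 difference of cycling against G1 cells (± SE, 8 hosts) for the 10 genes and 67 further chromatin genes, grouped by list, with genes at an adjusted p under 0.05 in red and named; the dashed line is the median of all tested genes (0.13). *Ezh2* and *Smarca4* are the red points of the top list, and *Smarca2* is the only named gene to the left of 0.

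The second comparison set Myc-positive cells, those with at least 1 count of *Myc*, a marker of positively selected LZ cells, against the remaining cells of the same host. There were 177 Myc-positive cells (27.8%), of which 68.9% were cycling against 56.7% of Myc-negative cells, and their median depth was 890495 against 751578 counts. None of the 10 genes was called by edgeR, at an unadjusted p under 0.05 the number was also 0, beside 8.28% of all tested genes, and DESeq2 called 0 of them, beside 9.19%. Of 12714 tested genes, *Myc* left out, 0.0315% were called higher and 0.0157% lower. The median log2 difference over the tested genes was -0.42, and over the 10 genes it was -0.20.

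*Ezh2* was at 175 ± 57.1 CPM in Myc-positive and 193 ± 32.8 CPM in Myc-negative cells, and higher in 3 of 8 hosts (log2 -0.18 ± 0.19). *Smarca4* gave 439.6 ± 66.3 against 492 ± 104 CPM (log2 -0.16 ± 0.15). *Kmt2d* (501 ± 93.6 against 579 ± 66.7 CPM) and *Arid1a* (244 ± 52.1 against 299 ± 45.1 CPM) were lower in 6 and 7 of 8 hosts, with log2 differences of -0.23 ± 0.11 and -0.31 ± 0.14. Both lay above the median of -0.42 over all tested genes. *Ep300* was lower in 7 of 8 hosts (174 ± 86.4 against 298 ± 91.6 CPM, log2 -0.89 ± 0.70), and in A7, which held 5 Myc-positive cells, it was at 0.85 CPM. *Tet2* (94.2 ± 74.9 against 32.1 ± 16.3 CPM) and *Dnmt3a* (59.6 ± 52.4 against 21.2 ± 14.8 CPM) were each higher in 6 of 8 hosts, with log2 differences of 1.23 ± 0.82 and 1.27 ± 1.16. *Crebbp* was seen in 89.0% ± 7.76 of Myc-positive and 77.0% ± 5.18 of Myc-negative cells, in 88.3% ± 8.74 and 77.9% ± 4.87 with cells thinned, and its CPM did not follow (log2 0.14 ± 0.21). Myc-positive cells held a median of 4329 genes against 3800, and the share was not computed for all tested genes here. *Hdac3* (log2 -0.33 ± 0.24) and *Kdm1a* (log2 -1.50 ± 1.72) were not called. None of the 68 further chromatin genes tested was called.

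The third comparison set acalabrutinib against vehicle hosts, with drug-resistant and drug-sensitive cells of a host together. No gene passed edgeR in either direction (0% of 18016 genes), 616 (3.42%) had an unadjusted p under 0.05, and DESeq2 called 94 (0.548% of those it gave an adjusted p), none of them among the 10. *Ezh2* was at 172, 147, 159.6, 199 and 249 CPM in A7, A8, A10, A11 and A12 and at 201, 203 and 169.9 CPM in V5, V7 and V9. *Smarca4* was at 401, 439, 551, 489.7 and 407 CPM in the same acalabrutinib hosts and at 454, 542 and 556 CPM in the vehicle hosts. *Kmt2d* was at 592, 590.5, 641, 441 and 513 CPM and at 646, 564 and 495 CPM. The groups overlapped for all 3 genes. Over the 10 genes the log2 differences ran from -0.20 (*Tet2*, SE 0.40) to 0.49 (*Dnmt3a*, SE 0.60), and that of *Ep300* was 0.35 ± 0.28. The difference of the treatment effect between cycling and G1 cells was called for 0% of 12687 genes by edgeR, with 402 (3.17%) at an unadjusted p under 0.05, of which 0 were among the 10. For *Ezh2* it was 0.33 ± 0.34 and for *Smarca4* -0.11 ± 0.24 on the log2 scale. As BTKC481S and BTKWT cells were not separated, these values do not speak to the effect of the drug on the sensitive cells.

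Across single cells the 10 genes were only weakly co-expressed. Spearman's rho of log2(CPM + 1) over 637 cells had a median of 0.013 over the 45 pairs, beside 0.015 over all pairs of 5701 genes with a count in at least 25% of cells. *Crebbp* and *Smarca4* made the highest pair at 0.18, followed by *Ezh2* and *Hdac3* at 0.13, and the 95th percentile of all gene pairs was 0.11. The lowest pairs were *Ep300* with *Dnmt3a* (-0.075) and *Ezh2* with *Tet2* (-0.071). *Crebbp* and *Smarca4* were both seen in 65.9% of cells, where the product of their shares gives 63.0%. The order of the pairs changed with the processing. With host means taken out *Tet2* and *Dnmt3a* were highest at 0.173 (0.051 pooled), next to *Crebbp* with *Smarca4* at 0.167. *Dnmt3a* with *Hdac3* was at 0.16 (0.040 pooled) and *Ezh2* with *Hdac3* at 0.14. The host means were taken out before ranking, so cells with 0 counts of a gene held a value set by their host. For genes seen in few cells the values of this setting therefore still carry host level, and no co-expression is read from them. In that setting the 95th percentile of rho with other genes was 0.194 for *Dnmt3a*, 0.172 for *Hdac3* and 0.133 for *Tet2*. It was 0.166 for *Ezh2*, 0.129 for *Smarca4* and 0.092 for *Crebbp*. With cells thinned *Crebbp* and *Smarca4* (0.14) and *Ezh2* and *Hdac3* (0.11) were highest, and *Tet2* with *Dnmt3a* gave 0.053. Cells share host, plate and depth, and these values are a description of sparse counts.

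**Figure D5:**
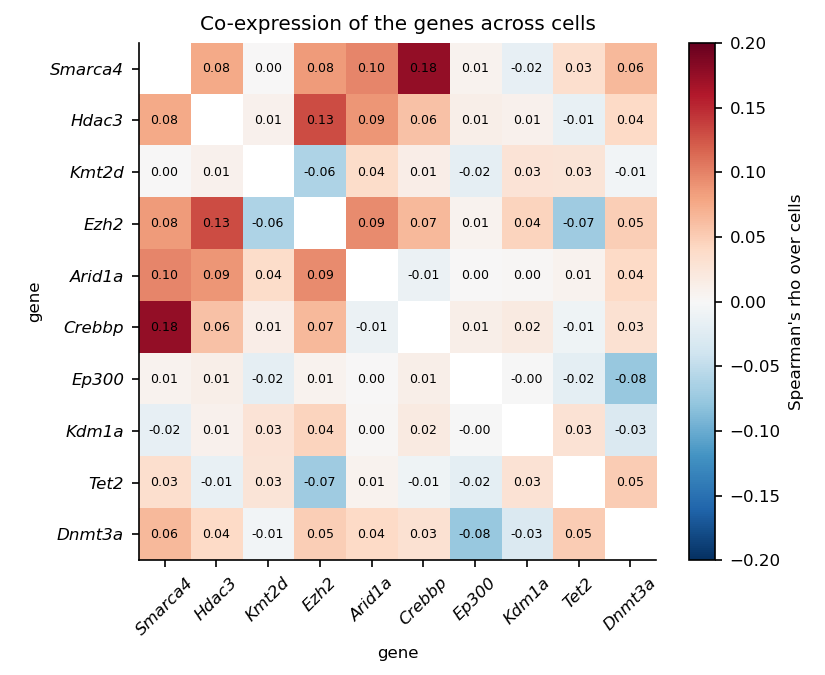
Spearman's rho between each pair of the 10 genes over 637 cells, from log2(CPM + 1), with red for positive and blue for negative values. The darkest cell is *Crebbp* with *Smarca4* at 0.18, and most of the 45 pairs lie near the median of 0.013.

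The genes whose pattern across cells was most like that of a member differed from one to the next. *Ezh2* went with *Rrm2* (rho 0.42), *Brip1* (0.34) and *Top2a* (0.33), which serve DNA synthesis and repair and are S or G2/M phase genes of the phase call. *Smarca4* went with the mitotic genes *Ccnb2* (0.31), *Cdc20* (0.29) and *Cdca8* (0.29), also phase genes. *Arid1a* stood nearest to *Ccnb2* (0.17), *Knl1* (0.15) and *Mki67* (0.15). The highest values of the others were 0.21 for *Crebbp* (*Sf3b4*), 0.25 for *Hdac3* (*Vmn2r59*), 0.18 for *Dnmt3a* (*Snhg1*), 0.17 for *Tet2* (*Arap2*), 0.17 for *Kdm1a* (*Gm9531*), 0.15 for *Ep300* (*Ccnd3*) and 0.14 for *Kmt2d* (*Gm14697*). With cells thinned these were 0.40 for *Ezh2* with *Rrm2* and 0.31 for *Smarca4* with *Ccnb2*, and 0.044 for *Kmt2d* with *Gm14697*. *Vmn2r59* had a count in 79.9% of cells and *Gm14697* in 80.4%. Introns were counted, and whether such counts reflect expression of these genes was not tested.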

How the data were processed

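SMART-seq2 libraries of 637 sorted LZ GC B cells from 8 hosts were analysed. The authors used STARsolo 2.7.10a with GRCm39 (annotation release 107), counted overlap with the whole gene, introns included, and deposited whole-number counts, with no normalization, for 56691 genes. The submitters' processing notes also name GRCm38, with no role given. No molecular identifiers were used and reads were deduplicated by exact position, so amplified copies can still count more than once. Cells held 132412 to 1825420 counts (median 789357). Exon lengths and promoter windows come from GENCODE M21 and RefSeq on GRCm38.p6, another build than the counts, so they served only for per-length levels and sequences. No cell was removed, and no doublet caller was run on cells sorted into single wells.

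The genes, the lists and the tests were chosen with earlier results of these data known. Named were the 10 genes, any further chromatin gene called in the cycling or Myc comparison, 14 fixed partner genes, and the 3 genes most like each of the 10 across cells among those with a count in at least 25% of cells. Plate as a block and cycling state as a term were alternatives added after seeing the data.

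Phases were called with Seurat 5.3.0 on log-normalized counts. Counts were summed per host and state (at least 5 cells a side) and tested with edgeR 4.0.16 (R 4.3.3; TMM, filterByExpr, quasi-likelihood, Benjamini-Hochberg over all genes). States were compared within hosts, with the host as a block, because both states of a pair come from the same animal. Alternatives were DESeq2 1.42.0, no filter on low counts, each host left out, cells thinned to 459128 counts (64 shallower cells left out), cells weighted equally (limma 3.58.1 on log2 of mean CPM + 1), no block, phase calls without the 30 cells within 0.05 of the cut, and Myc-positive from 10 counts. The fit was tested on simulated data. Labels describe 16 samples, each a genotype within a host. Cell names give no genotype, so genotypes were not compared. Per the study's methods, hosts were males and shared a litter within an experimental group. With the host as a block, p-values measure how the difference within a host varies over hosts. Those of acalabrutinib against vehicle measure the spread between hosts.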

Additional observations from a re-analysis of the deposited data

Results flagged for a closer look

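Of 40 sets of host values examined for a host far from the others, 3 held one, and chance alone marks about 1 set in 20. In *Ep300* the log2(CPM + 1) difference of Myc-positive minus Myc-negative cells was -7.87 in A7, against -1.07 to 0.22 in the other hosts. In *Crebbp* the same difference was 1.66 in A7, against -0.52 to 0.44 elsewhere. The 5 Myc-positive cells of A7 held 3 counts of *Ep300* in all. In *Hdac3* the difference of cycling minus G1 cells was 2.05 in V7, against 0.26 to 1.08 in the other hosts, where *Hdac3* in G1 cells of V7 was at 28.0 CPM. Without V7 the fitted log2 difference of *Hdac3* was 0.52 (adjusted p = 0.22, edgeR), as against 0.72 with all hosts.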

How the results depend on the processing

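Counts of genes called over all tested genes moved more than 1.5 times in several settings. For cycling against G1 cells, 384 genes became 1972 with DESeq2 and 194 with no filter on low counts, and the number of the 10 genes called went from 2 to 6 and 1. Leaving out each host gave 222 (without V9) to 304 genes and 1 to 2 of the 10. For G2/M against S cells, 35 genes became 857 with DESeq2, 14 with no filter, 60 with cells weighted equally, 58 with no replicate block and 59 with plate as a block, and 12 to 32 with a host left out (12 without A11). One of the 10, *Smarca4*, was called with DESeq2, thinned cells, equal weighting, and 0 to 1 of the 10 with a host left out (A10). For Myc-positive cells, 6 genes became 1169 with DESeq2, 0 with no filter, 1 with thinned cells, 18 with equal weighting, 22 with no replicate block, 64 with plate as a block, 2 with Myc-positive from 10 counts, 0 within G1 cells, 0 within cycling cells, 40 with cycling state as a term, and 0 to 6 with a host left out (0 without A10); none of the 10 was called in any of these. For acalabrutinib against vehicle hosts, 0 became 94 with DESeq2. The cause of these moves was not tested.

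No replicate block gave 367 called genes and 2 of the 10 in cycling cells, where the host pairs the 2 states. No paired analysis of genotypes was possible because cell names carry none, and A7 and V7 share a number but not an animal.

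The log2 difference changed sign in *Arid1a* in cycling cells (-0.0055 with DESeq2, -0.17 with equal weighting, -0.033 with no replicate block, -0.090 to 0.16 with a host left out), *Kdm1a* (-0.034 with plate as a block, -0.016 without cells near the phase cut, -0.39 to 0.91) and *Crebbp* (-0.20 to 0.033). In G2/M against S cells it changed in *Arid1a* (0.0075 with DESeq2, 0.069 thinned, 0.073 equal weighting, 0.087 no replicate block, 0.22 plate, -0.25 to 0.11), *Kdm1a* (-0.017 equal weighting, -0.28 plate, -0.21 to 0.81), *Hdac3* (0.068 plate, -0.23 to 0.18), *Ezh2* (-0.016 to 0.21), *Ep300* (-0.086 to 0.23) and *Dnmt3a* (-0.76 to 0.33). In Myc-positive cells it changed in *Crebbp* (-0.078 thinned, -0.084 from 10 counts, -0.15 in G1 cells, -0.045 to 0.24), *Dnmt3a* (-0.30 from 10 counts) and *Kdm1a* (1.03 in cycling cells). Between treatments it changed in *Kmt2d* (0.0029 with equal weighting, -0.21 to 0.092), *Tet2* (0.056, -0.47 to 0.16), *Arid1a* (-0.17 to 0.047) and *Kdm1a* (-0.35 to 0.011), and for the difference of treatment effects in *Crebbp* (-0.50 to 0.31), *Smarca4* (-0.19 to 0.055) and *Hdac3* (-0.53 to 0.41). None of these differences was called in the reported fit.

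As means over hosts, the shares of cells with a count moved beyond 1 SD for *Tet2* when thinned (39.5% to 31.5%) and, at a minimum of 10 counts, for *Ezh2* (52.4%), *Kmt2d* (91.8%), *Crebbp* (70.7%), *Ep300* (52.4%), *Tet2* (12.9%), *Dnmt3a* (9.95%), *Arid1a* (61.2%) and *Kdm1a* (9.89%). The median rho over pairs stayed within the spread of hosts (0.037 with host means taken out, 0.010 thinned). The value with host means taken out still carries host level for genes seen in few cells. Of the shares, thinning to one depth moved only that of *Tet2* beyond 1 SD.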
